A study of Homo sapiens with 4 samples.

Results

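The genes described here are 9 RNA-binding regulators of splicing: QKI, KHDRBS1, RBFOX2, CELF1, ELAVL1, FUBP1, FUBP3, TARDBP and EWSR1. They were taken by gene symbol from a table of skipped exon events, in each of which the middle of 3 exons is either kept or left out of the mRNA. Of 91 events in these genes, 83 averaged 20 or more junction reads (reads that span a splice junction) per library and were tested, out of 54503 tested events of 65601 in the whole table. The 83 events concern 64 exons, and some events share an exon or its reads. EWSR1 had 19 tested events, CELF1 13, KHDRBS1 12, FUBP3 11, FUBP1 9, RBFOX2 6, QKI 5, TARDBP 5 and ELAVL1 3. The shallowest tested event was a 147-nt exon of KHDRBS1 with a mean of 24.5 reads, and the deepest one left out was a RBFOX2 event with a mean of 17.25 reads.

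The cells were 293T, also known as HEK293T, a transformed human embryonic kidney line. Per the labels, 2 libraries came from cells that received an antisense oligonucleotide against SNORD89, a box C/D small nucleolar RNA, and 2 from cells with the treatment none. The oligonucleotide was a 5-10-5 MOE gapmer, a modified strand whose DNA core directs RNase H to the paired RNA. It was given at 70 nM with Lipofectamine RNAiMAX. Cells got fresh medium after 24 hours, and RNA was isolated at 48 hours; this protocol text is attached to the untreated samples as well. No control oligonucleotide is named, so oligonucleotide delivery and loss of SNORD89 cannot be told apart. The table holds 2 sets of 2 libraries and does not name the treatment of either set, so every direction below is given as the first set against the second set. A table of skipped exons does not measure SNORD89, and its depletion was not checked.

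Proteins of this kind bind short motifs in introns, exons and untranslated regions, and many of them regulate the splicing of their own transcripts. QKI and KHDRBS1 (also called SAM68) belong to the STAR family, which binds RNA through a KH domain. RBFOX2 recognises the motif UGCAUG through a single RNA recognition motif, CELF1 binds GU-rich sequence, and ELAVL1 (HuR) binds AU-rich and U-rich elements and is best known for stabilising mRNA. FUBP1 and FUBP3 are KH-domain proteins named for binding upstream of the MYC gene. TARDBP (TDP-43) binds GU repeats and represses cryptic exons, and EWSR1 belongs to the FET family, as does TAF15.

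The exons on which the results below turn are shown first, 5′ to 3′, with positions as in the deposited table (hg19) and bases from the matched exon of a GENCODE release 29 transcript (GRCh38). Capitals mark the last 3 bases of an exon, next to the 5′ splice site. In the longer FUBP1 exon they mark instead the 5 extra bases at its 5′ end. Of the FUBP1 exons only the first 25 or 30 bases are given. The QKI and FUBP3 exons and both RBFOX2 exons are coding. The FUBP3 exon keeps the reading frame when skipped, since its length is divisible by 3, whereas each RBFOX2 exon leaves a remainder of 1 and the QKI exon one of 2. The CELF1 exon occurs in non-coding transcripts only.
QKI 143-nt exon, chr6:163876311-163876453, plus strand: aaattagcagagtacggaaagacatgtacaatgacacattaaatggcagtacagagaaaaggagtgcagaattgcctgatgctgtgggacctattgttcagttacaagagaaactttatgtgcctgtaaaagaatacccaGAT
RBFOX2 40-nt exon, chr22:36152152-36152191, minus strand: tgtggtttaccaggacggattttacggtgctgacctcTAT
RBFOX2 43-nt exon, chr22:36148660-36148702, minus strand: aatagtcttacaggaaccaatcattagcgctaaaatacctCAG
CELF1 105-nt exon, chr11:47493550-47493654, minus strand: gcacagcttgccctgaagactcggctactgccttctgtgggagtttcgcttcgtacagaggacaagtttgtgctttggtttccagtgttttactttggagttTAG
FUBP1 95-nt exon, chr1:78413138-78413232, minus strand: gtttgatccagccagtatagaacta
FUBP1 100-nt exon, chr1:78413138-78413237, minus strand: TGCAGgtttgatccagccagtatagaacta
FUBP3 72-nt exon, chr9:133510054-133510125, plus strand: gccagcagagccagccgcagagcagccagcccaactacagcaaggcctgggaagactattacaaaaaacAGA

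Most member events had nearly full inclusion in both sets, and the splicing of the 9 genes differed little between the sets. The inclusion level is taken from length-corrected junction reads. It is the fraction that keeps the exon among the forms joined to a given pair of flanking exons, not among all transcripts of the gene. The mean inclusion level was above 0.95 in 63 of 83 events (75.9%, against 66.1% of all tested events). It lay between 0.05 and 0.95 in 12 events (14.5%, against 24.6%) and under 0.05 in 8 (9.64%, against 9.3%). The events of intermediate inclusion belonged to CELF1 (7), FUBP1 (2), FUBP3 (2) and TARDBP (1). The median absolute difference between the sets was 0.00432, compared with 0.0114 over all tested events, and 69 events (83.1%, against 63.5%) differed by less than 0.02. The member events were also deeper, with a median of 534 reads against 190. Only 2 of the 83 lay above the 95th percentile of the absolute difference among events of like depth. Both were events of the 105-nt CELF1 exon, with nearly the same inclusion reads and opposite directions, so they are not separate observations. Inclusion was higher in the first set in 38 events and lower in 45.

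No member event was called by the rule of an FDR under 0.05 in the authors' deposited table together with a difference of at least 0.1, which 2.71% of all tested events met. The FDR alone was under 0.05 for 1 event, in QKI, against 5.72% of all events in the authors' deposited table. The p-value in the authors' deposited table was under 0.05 for 6 member events (7.23%, against 14.3%). In a quasi-binomial model, which takes the spread between libraries of a set as its error, no member event had an adjusted p under 0.05 (lowest 0.877). The unadjusted p of that model was under 0.05 for 2 events (2.41%, against 2.82%). Both are EWSR1 events with the same flanking exons and the same skipping reads, so they are not separate observations. Of all tested events, 0.00183% (1 event) passed the quasi-binomial test. In 18 member events (21.7%) the sets had no overlap in inclusion level, a share near the 22.8% of all events.

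**Figure D1:**
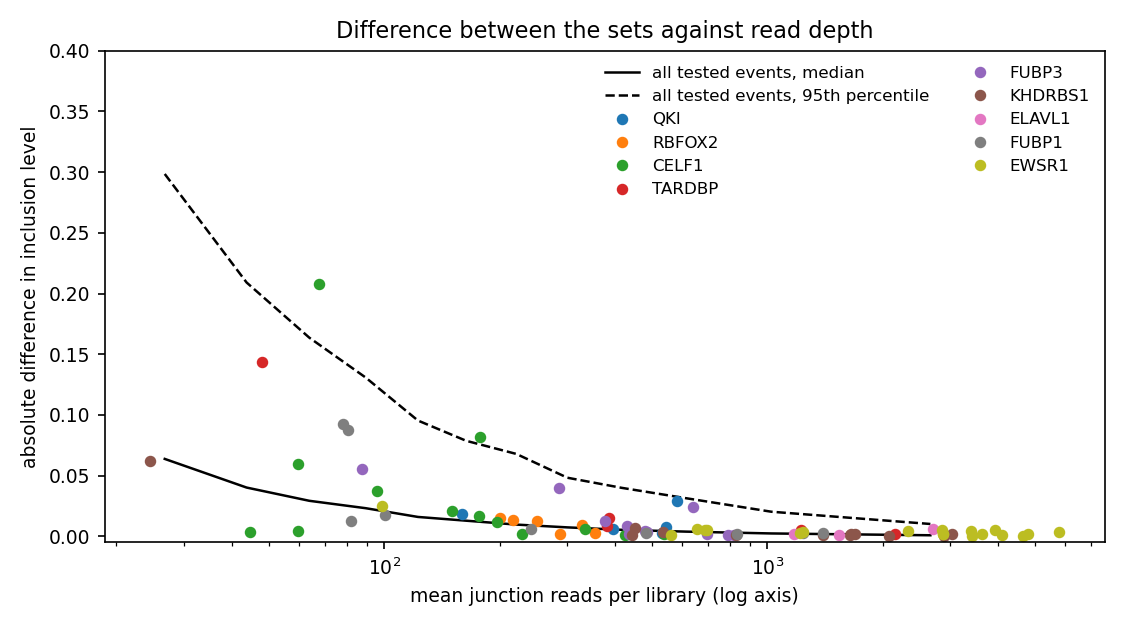
Absolute difference in inclusion level between the sets (vertical axis, fraction) against mean junction reads per library (horizontal log axis) for the 83 tested events of the 9 genes. The lines give the median and 95th percentile of all 54503 tested events by depth group. The 2 member events above the upper line are both events of the CELF1 105-nt exon.

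Among the STAR proteins, QKI held the only event with an FDR under 0.05. Its 143-nt exon had inclusion levels of 0.970 and 0.973 in the libraries of the first set and of 1 and 1 in those of the second set. The sets did not overlap, and the difference of -0.0288 had, in the authors' deposited table, an FDR of 0.0389. The difference fell short of the 0.1 asked for a call, and its adjusted p in the quasi-binomial model was 0.877. Skipping rested on 17 of 1090 and 11 of 775 reads in the first set, or 1.56% (95% Wilson interval 0.976 to 2.48) and 1.42% (0.794 to 2.52). The second set had 0 of 266 and 0 of 193 skipping reads. Taking 3 counts as the limit of a count of 0, here and below, this allows shares of up to 1.13% and 1.55%. The upper Wilson bounds of these libraries were 1.42% and 1.95%, which overlap the intervals of the first set. Each limit is for 1 library. Intervals and limits cover counting error only. The other 4 QKI events were included at 0.957 or more in every library. They include the 850-nt and 75-nt exons at the 3′ end of the gene, where alternative ends are known to give protein forms that differ in their tails and in their place in the cell. Both exons end at the same base and share their skipping reads (1, 2, 1 and 1), so their levels do not tell how often each was used.

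KHDRBS1, a nuclear protein that links kinase signalling to splicing, kept its exons throughout. Its deepest event, the 134-nt coding exon at chr1:32502511-32502644, had inclusion levels of 0.998 and 0.996 in the first set, against 0.998 and 1.00 in the second. All 12 KHDRBS1 events had a mean inclusion above 0.95, and 11 differed by less than 0.02. The remaining event was the 147-nt exon named above for its low depth, at 1 in 3 libraries and 0.876 in library 1 of the second set.

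RBFOX2, a regulator of brain, muscle and epithelial splicing programs, contains a pair of short exons that are known to be used in turn, the 43-nt one mainly in muscle. The 40-nt exon was kept at 0.984 and 0.977 in the first set, against 0.957 and 0.978 in the second. The 43-nt exon was kept at 0.00251 and 0 in the first set, against 0.0208 and 0.0117 in the second. The event of the 43-nt exon has the 40-nt exon as a flanking exon, so it scores only transcripts that hold the 40-nt exon. Use of the 43-nt exon in place of the 40-nt exon lies outside it. Levels in this event did not overlap between the sets but rested on 1, 0, 4 and 2 inclusion reads, and its FDR was 1 in the authors' deposited table. Another event of the 43-nt exon, left out for low depth, had 0, 0, 0 and 1 inclusion reads and 5, 5, 6 and 3 skipping reads. The 40-nt and 43-nt exons were chosen for description after their values were seen. The 93-nt exon at chr22:36164304-36164396 is the deepest event, and this exon encodes part of the RNA recognition motif, with skipping known to be promoted by RBFOX proteins themselves. It was kept at 0.989 and 0.996 in the first set, against 0.990 and 1.00 in the second, with overlapping values.

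CELF1, whose targets include many developmentally regulated exons, held 7 of the 12 member events of intermediate inclusion. A 105-nt exon was measured against 2 alternative neighbouring exons. Against the neighbour at chr11:47490366-47490443, its level was 0.156 and 0.158 in the first set, against 0.0968 and 0.381 in the second. The libraries of the second set lay on either side of the first set, the difference was -0.0820, and the FDR was 1 in the authors' deposited table. Without library 2 of the second set the difference was 0.0602. Against the neighbour at chr11:47491846-47492107, the level was 0.701 and 0.662 in the first set, against 0.426 and 0.521 in the second. These values did not overlap, and 0.208 was the largest difference among the member events. The event had 75, 65, 34 and 97 reads and, in the authors' deposited table, an FDR of 0.0828. Its adjusted p was 0.877 in the quasi-binomial model, and it was chosen for description after its values were seen. The 2 events share the junction at the 5′ end of the exon, and their inclusion reads were nearly the same. These were 60, 52, 19 and 63 with the first neighbour and 60, 50, 19 and 63 with the second. When the reads of both events were summed the difference was -0.0454, but this sum counts shared reads more than once and is no separate measurement. The direction thus depended on the neighbouring exon.

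CELF1 exons near the 5′ end of the gene were also partly used. A partly coding 152-nt exon (chr11:47521005-47521156) was kept at 0.16 and 0.169 in the first set, against 0.0860 and 0.221 in the second. A 72-nt exon before the coding sequence (chr11:47522413-47522484) was kept at 0.112 and 0.166 in the first set, against 0.0999 and 0.212 in the second. For each exon, the second set spanned the first, and leaving out 1 library turned the direction of the difference (from -0.0559 to 0.0789 for 152 nt and from -0.0732 to 0.0392 for 72 nt). The events of these exons share the reads of the junction that skips them, 246, 179, 85 and 60 in the 4 libraries. Measured against another neighbour, the same exons stood at 0.680 to 0.785 (152 nt) and 0.705 to 0.862 (72 nt), so the level depended on which pair of flanking exons defined the event. A 40-nt exon further upstream stood at 0.0488, 0.0381, 0.0443 and 0, where 0 of 60 reads allows up to 5% of reads (upper Wilson bound 6.02%). With other flanking exons the same 40-nt exon stood at 0.340, 0.183, 0.403 and 0. The 4 events of 4 coding exons of CELF1 were at 0.984 or more in every library.

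ELAVL1 showed little skipping. The 226-nt coding exon at chr19:8032449-8032674 had 2391 to 3013 reads per library and inclusion levels of 0.999 and 0.990 in the first set, against 0.992 and 0.985 in the second, which overlapped. A 67-nt exon that is partly coding was rarely used, on 4 of 1330 and 3 of 1130 reads in the first set, against 8 of 992 and 4 of 1254 in the second.

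FUBP1 and FUBP3 each had exons of intermediate use. FUBP1 has a 95-nt exon and a 100-nt form of it that begins 5 bases earlier. Inclusion of the 95-nt form was 0.441 and 0.529 in the first set, against 0.486 and 0.299 in the second. The 100-nt form stood at 0.453 and 0.528 in the first set, against 0.496 and 0.310 in the second. Both forms are scored against the same skipping reads (34, 31, 31 and 40) and share the junction at the 3′ end of the exon. Inclusion reads were nearly the same, 44, 57, 48 and 28 for 95 nt and 47, 58, 51 and 30 for 100 nt. The levels therefore do not tell how often each form was used. In both the lowest value was that of library 2 of the second set while library 1 lay within the first set. The FDR was 0.903 and 0.957 in the authors' deposited table. The difference of 0.0924 for the 95-nt form became -0.0008 without that library.

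The coding 72-nt exon of FUBP3 was kept at 0.865 and 0.775 in the first set, against 0.832 and 0.857 in the second. It had 525 to 829 reads per library, and the sets overlapped. Its difference of -0.0245 had FDR 1 in the authors' deposited table and an unadjusted p of 0.551 in the quasi-binomial model. The difference was -0.0695 without library 1 of the first set and 0.0206 without library 2 of that set. A 133-nt exon known from non-coding transcripts was kept at 0.0291 and 0.0328 in the first set, against 0.0358 and 0.0435 in the second. The 58-nt and 163-nt coding exons each had an event with an unadjusted p under 0.05 in the authors' deposited table (0.0438 and 0.0411). In both events library 1 of the second set was low, at 0.809 and 0.884, while library 2 of that set was at 1. The events have the same flanking exons and the same skipping reads (4, 3, 10 and 0), so they are not separate observations.

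TARDBP limits its own level through a regulated intron after its stop codon. Its 272-nt exon lies after the coding sequence (chr1:11084121-11084392) and was kept at 0.95 and 0.857 in the first set, against 0.806 and 0.714 in the second. The sets did not overlap, and the difference of 0.144 had, in the authors' deposited table, an unadjusted p of 0.0448 with FDR 0.307. It rested on 39, 52, 65 and 36 reads and was 0.0859 without length correction, and its unadjusted p in the quasi-binomial model was 0.367. The rarely used 132-nt exon at chr1:11076180-11076311, chosen for description after its values were seen, had 20 of 534 and 18 of 460 inclusion reads in the first set, against 5 of 248 and 0 of 304 in the second. Its FDR was 0.0547 in the authors' deposited table. The 0 of 304 reads allows up to 0.987% (upper Wilson bound 1.25%), under the first set's lower bounds of 2.44% and 2.49%. The 2.02% of library 1 of the second set had an interval of 0.864 to 4.63 that overlapped the intervals of the first set. All 5 TARDBP events had higher inclusion in the first set, but these were not 5 separate observations. The 132-nt exon and a 123-nt exon share their skipping reads (514, 442, 243 and 304). The 164-nt and 171-nt coding exons differed by only 0.00503 and 0.00163, with overlapping sets. The difference of the 272-nt exon lay under the 95th percentile of events of like depth, 0.2091.

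EWSR1, the most deeply read of the 9 genes, kept its exons in all libraries. Its 123-nt exon at chr22:29693817-29693939 had 5262 and 5304 reads in the first set, against 6232 and 6327 in the second. The inclusion level was 0.991 and 0.985 in the first set, against 0.991 and 0.978 in the second, with overlap. The mean inclusion of all 19 EWSR1 events was above 0.95. The smallest unadjusted p of the quasi-binomial model among the members, 0.0203, belonged to a 150-nt EWSR1 exon with 0 skipping reads in both libraries of the first set, against 5 and 12 in the second. That event was at 0.992 or more in every library, and its adjusted p was 0.877 in the quasi-binomial model. With another downstream flanking exon, the same 150-nt exon had 5 and 13 skipping reads in the first set, against 7 and 7 in the second. The difference of that event was -0.00216, in the other direction, so the absence of skipping reads in the first set held for 1 pair of flanking exons only.

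**Figure D2:**
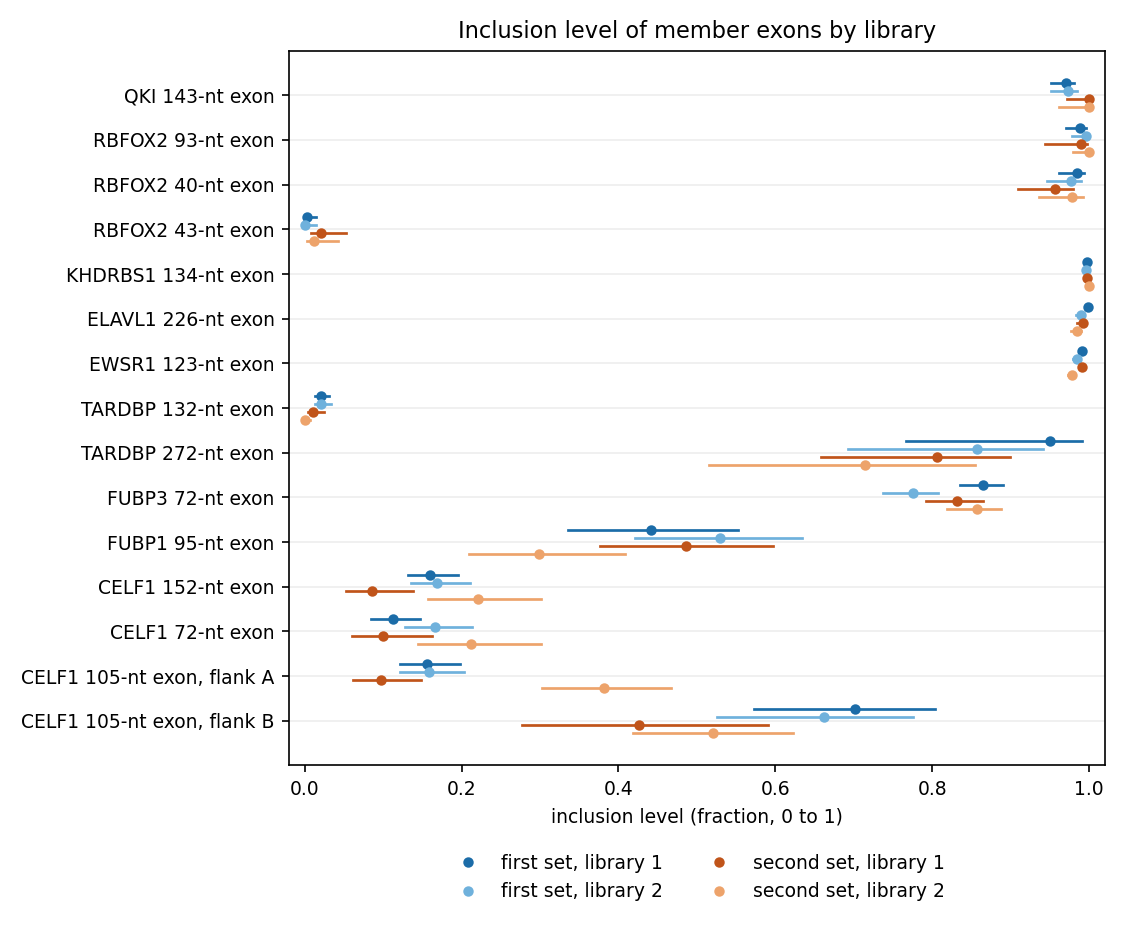
Inclusion level (horizontal axis, fraction from 0 to 1) of named exons of the 9 genes in each of the 4 libraries, with 95% Wilson intervals from junction reads carried to the inclusion scale. Flank A and flank B are the neighbours of the CELF1 105-nt exon in the order in which the text describes them; the second set spans the first at flank A and lies below it at flank B.

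Library 2 of the second set had the most events with no read of the rare form. Among the 63 member events with a mean inclusion above 0.95, the skipping form had 0 reads in 18, 19, 23 and 36 events in the 4 libraries (28.6%, 30.2%, 36.5% and 57.1%), the last of these being library 2 of the second set. The same share over all tested events of that class was 41.2%, 44.5%, 51.6% and 76.1%. The part of this library in the differences above was not tested, beyond the values given without it. The 132-nt TARDBP exon, the 40-nt CELF1 exon and the rare 63-nt FUBP1 exon (11, 11, 9 and 0 inclusion reads) had no reads of the rare form in it. Other events had their most rare-form reads there, such as the 226-nt ELAVL1 exon (2, 14, 10 and 21 skipping reads) and the 123-nt EWSR1 exon (25, 43, 31 and 77).

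The number of junction reads differed between the sets for 5 of the 9 genes. For each gene, the reads of its deepest event were scaled by median-ratio size factors and tested with limma. QKI, RBFOX2, CELF1 and TARDBP were higher in the first set, EWSR1 was lower, and ELAVL1, FUBP1, FUBP3 and KHDRBS1 did not pass an adjusted p of 0.05 in limma. These 5 compare with 33.5% of 9999 genes called in either direction, 17.2% upward and 16.2% downward in the first set relative to the second. The scaled reads of the sets did not overlap for 7 of the 9, against 68.7% of all genes. The members' median log2 ratio, first set over second, was 0.37, and that of all genes 0.01, with quartiles of -0.36 and 0.53. In bulk RNA, fewer cells and less RNA per cell cannot be told apart, and reads of 1 event also depend on which exons are joined.

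**Figure D3:**
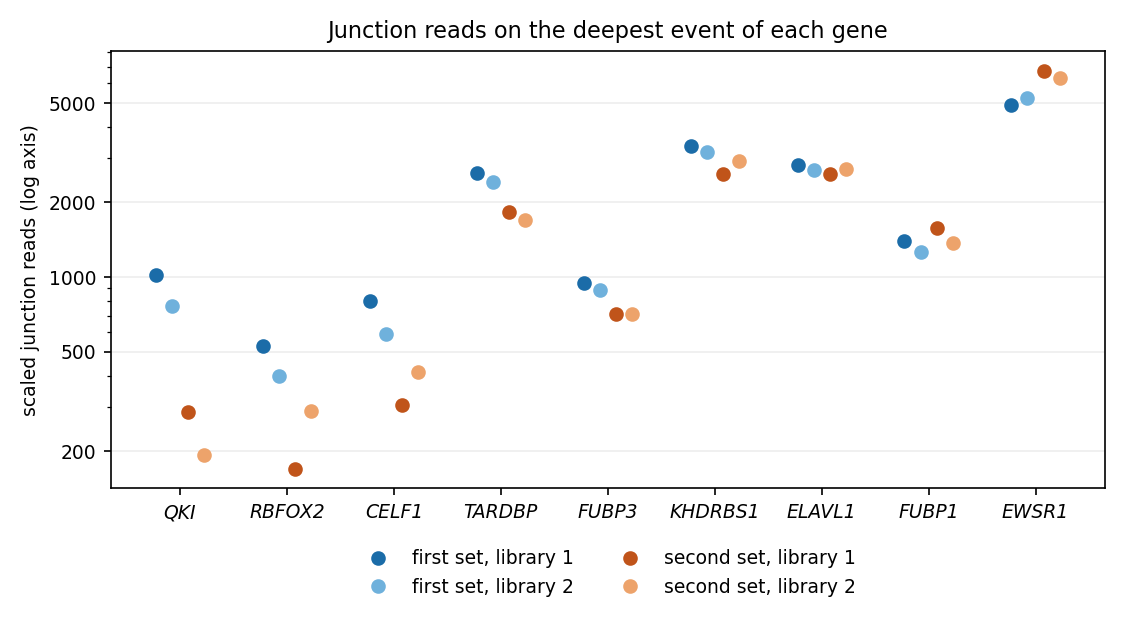
Scaled junction reads (vertical log axis) on the deepest skipped exon event of each of the 9 genes, 1 point per library. The first set lies above the second for QKI, RBFOX2, CELF1, TARDBP, FUBP3 and KHDRBS1 and below it for EWSR1, and the sets overlap for ELAVL1 and FUBP1.

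QKI differed most. It had 1022 and 765 scaled reads in the first set, against 288 and 193 in the second, a log2 ratio of 1.92 ± 0.21 (SE), or 3.78-fold, with an adjusted p of 3.83e-08 in limma. Every library of the first set lay above both of the second, and the ratio ranged from 2.96 to 3.72 over its 5 events. Among all genes this log2 ratio stood at the percentile of 97.1. RBFOX2 had 528 and 402 scaled reads in the first set, against 170 and 290 in the second, a log2 ratio of 1.04 ± 0.23 (SE) with an adjusted p of 0.00079 in limma. The ratio was above 1 in all 6 of its events. CELF1 had 801 and 591 scaled reads in the first set, against 305 and 415 in the second, a log2 ratio of 0.94 ± 0.19 (SE) with an adjusted p of 0.000405 in limma. Its 13 events all had a ratio above 1, from 1.01 to 3.47.

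TARDBP had 2620 and 2414 scaled reads in the first set, against 1818 and 1687 in the second, a log2 ratio of 0.52 ± 0.15 (SE) with an adjusted p of 0.00575 in limma. The ratio was above 1 in 4 of its 5 events. FUBP3 had 947 and 889 scaled reads in the first set, against 713 and 710 in the second, with a log2 ratio of 0.37 ± 0.16 (SE) and an adjusted p of 0.0649 in limma. The groups did not overlap, but the test was not passed. KHDRBS1 had 3346 and 3176 scaled reads in the first set, against 2598 and 2915 in the second, with a log2 ratio of 0.24 ± 0.14 (SE) and an adjusted p of 0.192 in limma.

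ELAVL1 had 2825 and 2692 scaled reads in the first set, against 2589 and 2717 in the second, and FUBP1 had 1394 and 1265 against 1570 and 1371. Their log2 ratios were 0.06 ± 0.14 (SE) and -0.14 ± 0.15 (SE), and their sets overlapped. FUBP1 stood at 0.22 with scaling by total junction reads, which moved the median of all genes by 0.36, and ELAVL1 turned to -0.06 when all of its events were summed. EWSR1 had 4933 and 5232 scaled reads in the first set, against 6747 and 6319 in the second, a log2 ratio of -0.36 ± 0.14 (SE) with an adjusted p of 0.0498 in limma, next to the threshold. Leaving out any 1 of the 4 libraries ended its call, with log2 ratios from -0.41 to -0.31, as did scaling by upper quartiles (log2 ratio -0.23, adjusted p of 0.181 in limma) or by total reads (0.00, adjusted p of 0.994 in limma).

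Without library 1 of the first set, QKI remained called, at a log2 ratio of 1.71. RBFOX2, CELF1 and TARDBP then had log2 ratios of 0.86, 0.73 and 0.47, the same direction as with all libraries, but adjusted p-values of 0.0513, 0.0525 and 0.104 in limma. In that fit, 609 of 9854 genes were called in all. Without library 2 of the second set TARDBP had a log2 ratio of 0.46 and an adjusted p of 0.0634 in limma. Upper-quartile scaling moved the median log2 ratio of all genes by 0.13. Under total-read and upper-quartile scaling 7 and 6 members were called, all higher in the first set, and 94.4% and 69.7% of all called genes were higher there, compared with 51.4% under median-ratio scaling. In terms of depth, the 4 libraries had 38613055 and 39012939 junction reads in the first set, against 42868431 and 43929373 in the second. The 100 genes with the most reads took 31.7% and 34.1% of them in the first set, against 39.8% and 38.4% in the second. The part of this difference in composition in the gene ratios was not tested.

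**Figure D4:**
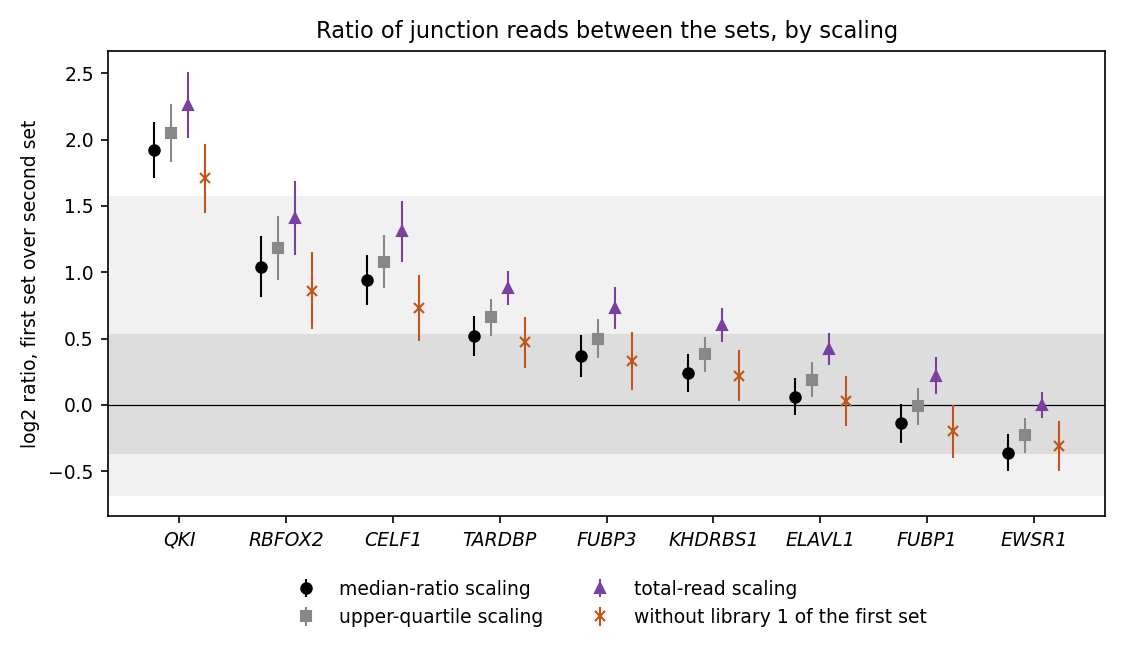
Log2 ratio of junction reads, first set over second, for each of the 9 genes (points, with bars of 1 SE) under 3 scalings and without library 1 of the first set. The dark and pale bands hold the central 50% and 90% of all genes under median-ratio scaling; total-read and upper-quartile scaling raise all genes alike, by 0.36 and 0.13 at the median.

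Other genes of the same families and further RNA-binding regulators were taken from a list of 36, of which 24 had tested events. Of their 223 events, 3 (1.35%, against 2.71% of all) were called by the rule on the authors' deposited table, all higher in the first set. The 97-nt exon of PUM2, a repressor of mRNAs with Pumilio elements, stood at 0.113 and 0.155 in the first set, against 0 and 0 in the second. The 39-nt exon of ELAVL2, a neuronal relative of ELAVL1, stood at 0.109 and 0.181 in the first set, against 0.0672 and 0 in the second. The 64-nt exon of IGF2BP3, an mRNA-stabilising protein, stood at 0.906 and 1 in the first set, against 0.722 and 0.620 in the second. Each had an adjusted p of 0.877 in the quasi-binomial model. All 3 events had few reads in the libraries of the second set, 17 and 44 for PUM2, 12 and 16 for ELAVL2 and 33 and 10 for IGF2BP3. By junction reads per gene, 12 of the 24 were higher in the first set, 3 were lower and 9 did not pass, against 17.2% higher and 16.2% lower among all genes. Their median log2 ratio was 0.39, against 0.01 for all genes. The lower genes included TAF15 (-0.84), a relative of EWSR1.

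As a check of the cell line, XRCC5 had 4945 to 8751 junction reads per library and PAX2 52 to 89, whereas EYA1 had at most 16. A further 3 genes fixed for the line and the 10 markers of blood, liver, fibroblast and endothelial cells are not listed in the table, so they neither support nor question the label.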

How the data were processed

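Poly(A) RNA was sequenced as 150-bp read pairs, per the labels' protocols, and cutadapt, STAR and the build hg19 are named in the submitters' processing notes. Per the file headers, the deposited table has the rMATS layout for skipped exons and gives junction read counts of the inclusion and skipping forms, inclusion levels as fractions, p-values, FDR values and a difference score per event. The rMATS version and annotation are not given in the sources used here. The labels call the libraries biological replicates without naming cultures, so p-values measure only the spread between these libraries, and columns of the table name neither treatment nor replicate numbers.

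Inclusion levels were recomputed from the counts and form lengths and lay within 0.0005 of the deposited values. Events with a mean of at least 20 reads over 4 libraries were tested. Calls used the authors' FDR under 0.05 and a difference of at least 0.1. A quasi-binomial model in R 4.3.3 with limma 3.58.1 fitted all 54503 events, with dispersion moderated on a trend in read depth and never under 1. Genes were tested with limma (voom) on the reads of their deepest event with median-ratio size factors, since the joined cells of the table were not taken as a count matrix for other packages. P-values were adjusted by Benjamini-Hochberg over all events or genes. Both models were tested on simulated data. Exons were matched to GENCODE release 29 by their spacing within a gene, for 59 of 64 member exons, and no position was converted. The members and lists were chosen with earlier results of these data known. Exons named with values were those called, those of mean inclusion from 0.05 to 0.95 (at most 4 per gene, by depth, each at its deepest event), and otherwise the deepest event of a gene; every other exon given with its own values was chosen after those values were seen. Alternatives covered scaling, read minimum, length correction, summed reads, dispersion and leaving out each library. Values of some listed genes are not reported here.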

Additional observations from a re-analysis of the deposited data

How the results depend on the processing

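No member event was called by the FDR rule under its 9 alternatives (read minimum, size of the difference, stricter FDR, adjustment over tested events, 1 event per exon, sets that do not overlap). The stricter alternatives choose among the events called as reported, so with none called their outcome was fixed. Only a read minimum of 10 or none, a difference of at least 0.05, or adjustment over tested events could have added a call. With none called there was none to follow without each library in turn. None passed the quasi-binomial model under its 9 alternatives either, although over all tested events that model called 1 event as reported, 16 without the depth trend, 0 with each event's own dispersion, 0 without library 1 of the first set and 240 without library 1 of the second set; the cause was not tested. The number of member events that differed by at least 0.1, 2 as reported, was 3, 3, 6 and 4 without each library in turn and 5, 1 and 8 with a read minimum of 10, of 50 or none. These counts, and the fit without a depth trend, were chosen after seeing the data. The number of member genes called, 5 as reported, ranged from 1 to 4 when 1 library was left out, with 1 without library 1 of the first set, where 609 genes were called over all against 3345, and 3 without library 2 of the second set. FUBP1 reversed to 0.22 with total-read scaling, from -0.14, which is the shift of 0.36 in the median of all genes. ELAVL1 reversed to -0.06 with summed events; the cause was not tested. FUBP3 passed the threshold with total-read scaling (0.73), upper quartiles (0.50) and summed events (0.53), and KHDRBS1 with total-read scaling (0.60) and upper quartiles (0.38). ELAVL1 passed with total-read scaling (0.42). Without length correction the difference in inclusion was -0.0149 for QKI and 0.0859 for the 272-nt TARDBP exon. Where a set was left with 1 library, that library was assumed to vary like the others. No paired analysis was possible because the table gives no replicate numbers for its libraries.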
